A study of Mus musculus with 6 samples.

Results

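The mitochondrial genome is a small circular chromosome that encodes 13 proteins of the respiratory chain, 2 ribosomal RNAs and 22 transfer RNAs. Its transcripts were taken as the rows of the count table that carry a gene of the mitochondrial chromosome. The table held a row for all 13 protein-coding genes, under their RefSeq names (ND1 to ND6, ND4L, COX1 to COX3, CYTB, ATP6 and ATP8), out of 35975 rows with counts. The other 24 genes of the chromosome, the ribosomal and transfer RNAs, were not analysed here.

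The libraries were made from interscapular brown adipose tissue of C57BL/6 mice. The Olfm4CKO group has the genotype Ucp1-Cre; Olfm4 flox/flox, in which Cre is driven by Ucp1 and the deletion is aimed at brown adipocytes, so other cells of the depot keep the gene by design. The second group is labelled Ctrl, and whether it carries Cre or the floxed alleles is not stated. The titles of all 6 libraries, those of Olfm4CKO included, also carry the words Olfm4 WT, and groups were taken from the genotype label. Age, sex and the number of mice behind a library are not given. Each group has 3 libraries in the labels, but the rows of the replicate 3 columns do not follow the gene names. These columns could not be used for any gene, and they were blank in all 13 mitochondrial rows. Every value below therefore comes from 2 Olfm4CKO and 2 Ctrl libraries, and a p-value reflects no more than the spread among these, which may be technical in part.

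Mitochondrial genes are transcribed as long precursors from both strands, which are cut at the transfer RNAs that lie between them. The resulting messenger RNAs are translated on mitochondrial ribosomes, and their products sit in complexes I, III, IV and V of the respiratory chain beside many subunits encoded in the nucleus. Brown adipocytes are packed with mitochondria, and the chain supplies the proton gradient that the uncoupling protein UCP1 turns into heat.

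Total counts were 15547569 and 15346705 in Olfm4CKO replicates 1 and 2 and 15953676 and 17309325 in Ctrl replicates 1 and 2. Ucp1, the defining gene of brown fat, stood at 4796 and 3016 CPM (the count scaled to a library total of 1000000) in Olfm4CKO and 5891 and 9949 CPM in Ctrl. Olfm4 itself had 0 counts in all 4 libraries, which allows up to 0.195 CPM in the shallower library of Olfm4CKO and up to 0.188 CPM in the shallower Ctrl library, so its loss was not detectable at this depth. The libraries also differed in sex-linked transcripts: Xist, which is made from the inactive X chromosome, had 214 and 212 CPM in Olfm4CKO against 0 and 48.2 CPM in Ctrl replicates 1 and 2. The Y-linked Ddx3y had 81.5 CPM in Ctrl replicate 1 and 0 counts in the other 3 libraries. The part of sex in the results below was not tested.

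The sequences bear on how these counts can be read. Stretches of the mouse mitochondrial genome also exist as pseudogenes in the nuclear chromosomes, and a read that fits both places equally well cannot be placed. The 13 genes were therefore compared with all transcripts of GENCODE vM21 (GRCm38, the assembly of mm10). In total 21 nuclear copies with at least 85% identity over at least 100 bases were found, and 0 of them has a row in the count table. Of these, 7 had at least 99% identity, and all 7 lie side by side on the minus strand of chromosome 1, at chr1:24611535-24616197, a stretch of 4663 bases. COX2, ATP6, COX3 and ND4L were each identical to their copy (Gm28661, Gm10925, Gm28437 and Gm10222) over all but their last 1 to 3 bases. ND3 differed from Gm28438 at a single base. ND4 was identical to Gm28439 over its first 876 of 1378 bases, and COX1 shared its last 483 of 1545 bases with Gm29216, with 1 difference. ND1, ND2, ND5, ND6 and CYTB had no copy at this identity. For ATP8 no copy was listed among the transcripts. Its last 43 bases also belong to ATP6 and so lie in Gm10925. The stretch between the copies of COX2 and ATP6 on chromosome 1 was not checked for the rest of ATP8. For these reasons ATP8 is left out of the comparison of genes with and without copies.

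The first 60 bases of COX3 (chrM:8607-8666, plus strand) are shown because a read from them reads the same in the nuclear copy Gm28437.
COX3 and Gm28437: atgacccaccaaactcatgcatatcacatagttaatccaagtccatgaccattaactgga
ND3 and COX1 are shown where they differ from their copies on chromosome 1, with the differing base in capitals. Positions are counted from 1 at the 5′ end of the gene, with the base of the mitochondrial gene first: T3C for ND3 (chrM:9459-9491 against chr1:24613087-24613119, minus strand) and A1066T for COX1 (chrM:6390-6423 against chr1:24616155-24616188, minus strand).
ND3: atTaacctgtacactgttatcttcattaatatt
Gm28438: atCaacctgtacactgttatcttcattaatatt
COX1: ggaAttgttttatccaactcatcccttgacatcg
Gm29216: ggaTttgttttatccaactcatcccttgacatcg
The end of the copied part of ND4 (chrM:11013-11072, plus strand) shows the change within 1 gene, with capitals for bases that the copy Gm28439 also holds.
ND4: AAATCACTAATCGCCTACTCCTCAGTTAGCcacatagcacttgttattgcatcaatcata
ND6 is shown as the contrast. Its copy Gm11408 on chromosome 4 has 93.6% identity, and the first 60 bases (chrM:14011-14070, minus strand, against chr4:80003855-80003914, minus strand) hold 2 differences, in capitals.
ND6: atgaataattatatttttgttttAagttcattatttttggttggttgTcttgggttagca
Gm11408: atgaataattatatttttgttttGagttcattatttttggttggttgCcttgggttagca

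Genes that overlap on the same strand are shown for another reason. ATP8 and ATP6 are translated from a shared messenger RNA, as are ND4L and ND4, and in each pair the end of the first gene is the start of the next. ATP8 (chrM:7766-7969, plus strand) has 204 bases, of which 43, in capitals, also belong to ATP6.
ATP8: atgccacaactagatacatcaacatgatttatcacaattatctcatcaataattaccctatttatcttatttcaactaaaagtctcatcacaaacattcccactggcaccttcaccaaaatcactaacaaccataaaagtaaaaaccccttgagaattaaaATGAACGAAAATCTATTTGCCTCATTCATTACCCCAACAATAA
ND4L ends on 7 bases shared with ND4, in capitals in its last 40 bases (chrM:10134-10173, plus strand).
ND4L: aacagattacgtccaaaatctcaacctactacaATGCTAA

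The mitochondrial genome supplied 19.2% and 16.9% of all counts in Olfm4CKO replicates 1 and 2, against 19.0% and 13.7% in Ctrl replicates 1 and 2. The mean was 18.0% ± 1.604 in Olfm4CKO and 16.3% ± 3.77 in Ctrl (SD, n = 2 each). Counting error was far smaller than these gaps, with Wilson 95% intervals of at most 0.0196 percentage points to either side. Olfm4CKO replicate 1 and Ctrl replicate 1 had nearly the same share, Olfm4CKO replicate 2 lay below both, and Ctrl replicate 2 was the lowest. The shares differed by 1.69 percentage points between the group means, less than the gap between the 2 libraries of either group (exact two-sided permutation test, p = 0.667; with 2 libraries against 2 the smallest possible p is 0.333). Without Ctrl replicate 2 the direction turned, with a log2 ratio of -0.08 against 0.14 with all 4 libraries. In a bulk tissue, fewer cells of a type and less RNA per cell cannot be told apart. Summed over 12 marker genes, brown adipocyte transcripts reached 20743 and 12980 CPM in Olfm4CKO against 19860 and 24616 CPM in Ctrl, so the Ctrl library with the highest adipocyte markers had the lowest mitochondrial share. Macrophage markers (10 genes) summed to 207 and 281 CPM against 203 and 449 CPM, and T and NK cell markers (10 genes) to 17.3 and 29.1 CPM against 15.98 and 70.4 CPM. Both were highest in that same Ctrl library. Endothelial markers (10 genes) summed to 1838 and 1604 CPM against 1208 and 1058 CPM, stromal markers (8 genes) to 686 and 1645 CPM against 1267 and 1605 CPM, and erythroid markers (5 genes) to 977 and 1723 CPM against 813 and 1322 CPM. Skeletal muscle markers (12 genes) summed to 292 and 52.1 CPM against 124 and 58.1 CPM, so replicate 1 was the higher library in both groups. Replicate 1 was the higher library for 9 of the 13 mitochondrial transcripts in each group, but these were not the same 9. The order of replicates was the same in both groups for 7 of the 13. Every marker had counts in at least 1 library, and the part of these cells in the results was not tested.

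A few transcripts made up most of the mitochondrial counts. COX1, the catalytic subunit of complex IV, took 22.4% and 42.9% of them in Olfm4CKO and 37.6% and 40.8% in Ctrl. CYTB, cytochrome b, the single mitochondrial subunit of complex III, took 25.8% and 19.8% against 20.9% and 21.8%. With ND1, ND2 and ND4 added, these 5 transcripts reached 87.9% and 90.8% of the mitochondrial counts in Olfm4CKO and 88.9% and 89.8% in Ctrl. The make-up of Olfm4CKO replicate 1 stood apart from the other 3 libraries, with CYTB in place of COX1 as its largest transcript.

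**Figure D1:**
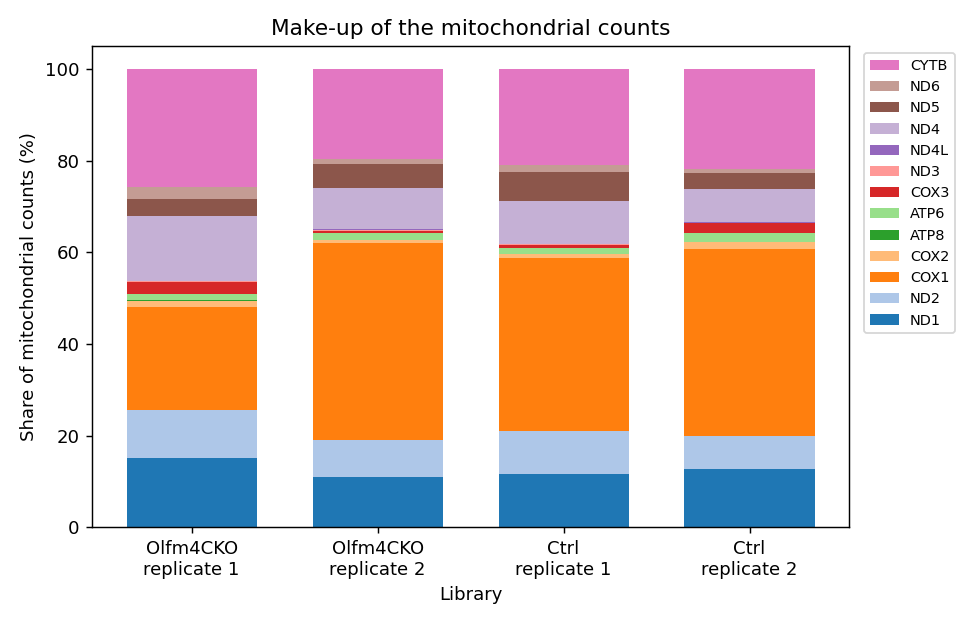
Share of the mitochondrial counts (percent, vertical axis) taken by each of the 13 transcripts in each library, stacked in the order of the chromosome. COX1 fills 22.4% of Olfm4CKO replicate 1 and 37.6% to 42.9% of the other 3 libraries.

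Of the 13 transcripts, 0 passed the test between Olfm4CKO and Ctrl (edgeR's quasi-likelihood test, Benjamini-Hochberg adjusted p below 0.05), as was the case for 0% of the 13573 genes tested. An unadjusted p below 0.05 was reached by 0 of the 13, against 2.11% of all genes. DESeq2 and limma-voom also called 0 of the 13. The 2 groups overlapped for every one of the 13 transcripts, whereas they did not overlap for 24.6% of all genes tested. Fitted log2 fold changes lay above 0 for 11 of 13 transcripts, against 48.6% of all genes, and their median was 0.27 against -0.01 over all genes. This count leans on single libraries. With Olfm4CKO replicate 1 left out, 5 of 13 lay above 0 and the median was -0.03. With Olfm4CKO replicate 2 left out, 9 of 13 did, and the median was 0.52. For 0 of 13 transcripts was the difference between group means larger than the gap between libraries within both groups, all on the log2 scale. With 2 libraries per group this follows from the overlap and is not a separate result.

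**Figure D2:**
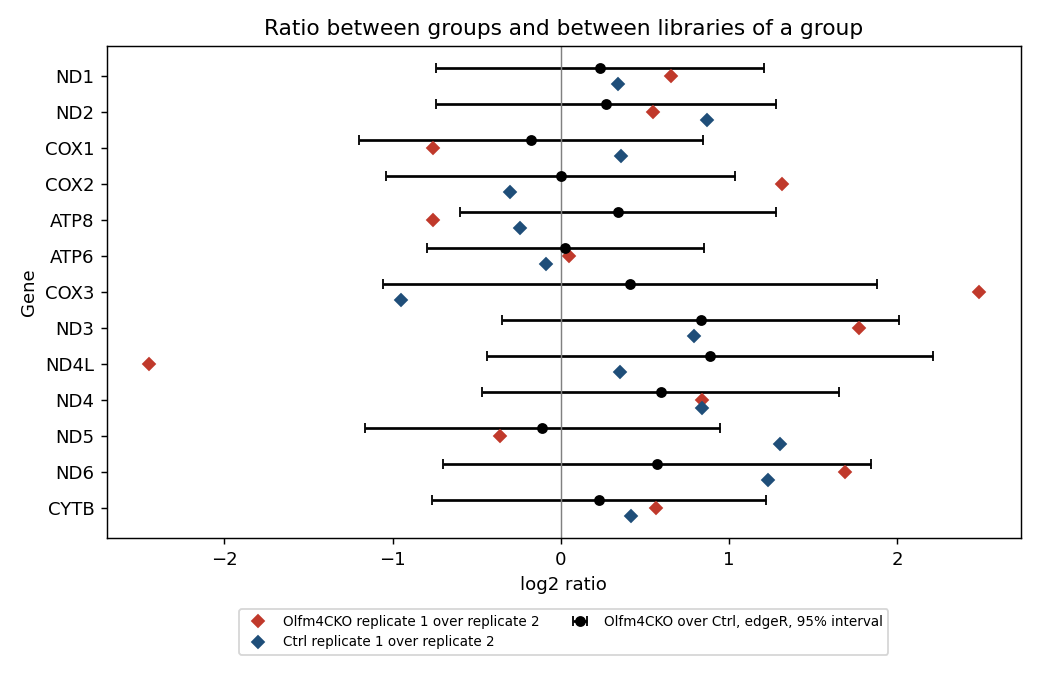
Log2 ratios for the 13 mitochondrial transcripts. Black points are the edgeR log2 fold change of Olfm4CKO over Ctrl with its 95% interval, and diamonds the ratio of replicate 1 to replicate 2 in CPM within Olfm4CKO (red) and within Ctrl (blue). Every black interval spans 0, and COX3 and ND4L in Olfm4CKO hold the diamonds farthest from 0, at 2.49 and -2.45.

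Complex I takes electrons from NADH, and 7 of its subunits are mitochondrial. Their counts summed to 8.88% and 5.84% of the library in Olfm4CKO and 7.32% and 4.36% in Ctrl. All of these subunits lie in the membrane arm that pumps protons. ND1 (chrM:2751-3707 in GRCm38), at the junction of the membrane arm and the peripheral arm, had 28860 and 18356 CPM in Olfm4CKO against 22067 and 17413 CPM in Ctrl. Replicate 1 was the higher library in both groups, and the groups overlapped (log2 fold change 0.23 ± 0.44 SE, edgeR adjusted p = 0.9998). ND2 (chrM:3914-4951), a proton-pumping subunit, had 20186 and 13828 CPM against 17957 and 9822 CPM, with the same order of replicates and a log2 fold change of 0.27 ± 0.46 (SE). ND4 (chrM:10167-11544), another pumping subunit, had 27182 and 15179 CPM against 17762 and 9911 CPM. Its highest value was in Olfm4CKO replicate 1, but Olfm4CKO replicate 2 lay below Ctrl replicate 1 (log2 fold change 0.59 ± 0.48 SE). ND4 was the only one of the 13 whose fitted fold change kept its sign whichever library was left out, between 0.11 and 1.05.

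ND5 (chrM:11742-13565), the pumping subunit at the far end of the arm, had 6952 and 8936 CPM in Olfm4CKO against 11977 and 4851 CPM in Ctrl, so both extremes were Ctrl libraries (log2 fold change -0.11 ± 0.48 SE). ND6 (chrM:13552-14070) is the only protein gene on the other strand of the chromosome (12 genes lie on the plus strand and 1 on the minus strand as annotated), and in human cells its messenger RNA is known to lack the poly(A) tail of the others. It had 4984 and 1545 CPM in Olfm4CKO against 3050 and 1298 CPM in Ctrl. Replicate 1 exceeded replicate 2 by 3.23-fold in Olfm4CKO and by 2.35-fold in Ctrl, and the log2 fold change between groups was 0.57 ± 0.58 (SE). ND5 and ND6 overlap by 14 bases on opposite strands, and no source used here gives the strand setting of the counting, so sense and antisense reads cannot be told apart in either gene.

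The small subunits ND3 and ND4L had the largest fitted fold changes. ND3 (chrM:9459-9806), at the hinge of the membrane and peripheral arms, had 598 and 175 CPM in Olfm4CKO against 272 and 157 CPM in Ctrl, a log2 fold change of 0.83 ± 0.54 (SE, edgeR adjusted p = 0.9998). The value rests on Olfm4CKO replicate 1: it was -0.32 with that library left out and 1.46 with Olfm4CKO replicate 2 left out. ND4L (chrM:9877-10173) had 75.1 and 411 CPM in Olfm4CKO against 143 and 112 CPM in Ctrl. Here Olfm4CKO replicate 2 was the highest library and Olfm4CKO replicate 1 the lowest, whereas ND3 was highest in Olfm4CKO replicate 1. The log2 fold change of ND4L was 0.89 ± 0.60 (SE, edgeR adjusted p = 0.9998). It ran from -0.78 without Olfm4CKO replicate 2 to 1.66 without Olfm4CKO replicate 1.

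For complex III, CYTB (chrM:14145-15288) had 49414 and 33420 CPM in Olfm4CKO against 39709 and 29791 CPM in Ctrl. Each group had 1 high and 1 low library, and the log2 fold change was 0.23 ± 0.45 (SE).

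In complex IV, which passes electrons to oxygen, the 3 mitochondrial subunits did not share an order of libraries. COX1 (chrM:5328-6872) had 42908 and 72565 CPM in Olfm4CKO against 71542 and 55850 CPM in Ctrl. Olfm4CKO held both the lowest and the highest value, and the log2 fold change was -0.18 ± 0.46 (SE). COX2 (chrM:7013-7696), which receives electrons from cytochrome c, had 2841 and 1144 CPM against 1753 and 2161 CPM, again with both extremes in Olfm4CKO and a log2 fold change of 0.00 ± 0.47 (SE). COX3 (chrM:8607-9390), a core subunit without redox centres, had 5070 and 905 CPM in Olfm4CKO against 1508 and 2907 CPM in Ctrl. The gap between the 2 Olfm4CKO libraries was 5.60-fold for COX3, the widest of the 13 transcripts, and ran opposite to that of COX1. The fitted log2 fold change of COX3, 0.41 ± 0.67 (SE), was -1.33 with Olfm4CKO replicate 1 left out and 1.18 with Olfm4CKO replicate 2 left out.

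In complex V, the ATP synthase, ATP6 (chrM:7927-8607) was the steadiest transcript of the chromosome. This subunit of the proton channel had 2591 and 2501 CPM in Olfm4CKO against 2366 and 2518 CPM in Ctrl, a span of 1.10-fold over the 4 libraries, with a log2 fold change of 0.03 ± 0.37 (SE). The 95% interval of that fold change ran from -0.79 to 0.85, and this fit bounds the change no more closely. Its width draws on the spread of all genes tested, not on the ATP6 counts alone. ATP8, a small membrane subunit, was the scarcest. It had 116 and 194 counts in Olfm4CKO against 113 and 145 counts in Ctrl, or 7.46 and 12.6 CPM against 7.08 and 8.38 CPM. The exact 95% Poisson interval of Olfm4CKO replicate 2, 10.9 to 14.6 CPM, lay apart from that of replicate 1, 6.17 to 8.95 CPM, which overlapped both Ctrl intervals (counting error only). The log2 fold change of ATP8 was 0.34 ± 0.43 (SE).

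Mature levels can be compared between genes only per length. On that scale (CPM per kilobase of gene) the same 5 transcripts led in every library: COX1, CYTB, ND1, ND2 and ND4. CYTB ranged from 29213 to 43194 CPM per kilobase in Olfm4CKO and from 26041 to 34711 in Ctrl, and COX1 from 27772 to 46967 in Olfm4CKO and from 36149 to 46305 in Ctrl. COX1 ranked first in 3 libraries and CYTB first in Olfm4CKO replicate 1. ATP8 ranked last in all 4, at 36.6 and 62.0 CPM per kilobase in Olfm4CKO and 34.7 and 41.1 in Ctrl. COX1, COX2 and COX3 are known to be cut from the same precursor strand. COX2 reached 4153 and 1672 CPM per kilobase in Olfm4CKO and 2562 and 3159 in Ctrl. COX3 reached 6466 and 1154 in Olfm4CKO and 1923 and 3708 in Ctrl. Nearly all of COX2 and COX3 lies in identical nuclear copies, whereas 1062 bases of COX1 lie outside its copy of at least 99% identity. The part of the copies in these levels was not tested. The order among COX2, COX3, ATP6, ND5 and ND6 was not stable: COX3, for example, held ranks 7 and 11 in Olfm4CKO and ranks 10 and 6 in Ctrl.

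**Figure D3:**
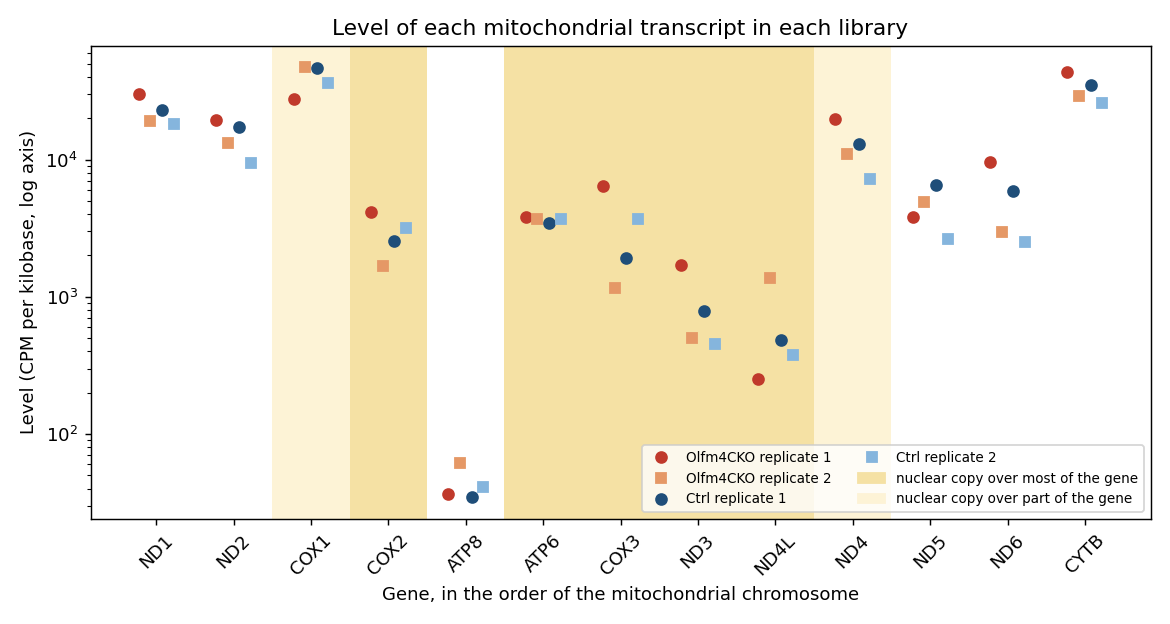
Level of each transcript (CPM per kilobase of gene, log axis) in each library, in the order of the genes on the mitochondrial chromosome. Shading marks genes with a nuclear copy of at least 99% identity over most of the gene (dark) or over part of it (pale). The 5 darkly shaded genes lie between 253 and 6466 CPM per kilobase, and ATP8 below them all. ATP8 is unshaded because no copy of it was listed. Its last 43 bases lie in the copy of ATP6, and the rest was not checked.

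Levels per length differed along with the nuclear copies. The 5 transcripts with a near-identical copy of nearly the whole gene (COX2, ATP6, COX3, ND3 and ND4L) had medians of 3805 and 1382 CPM per kilobase in Olfm4CKO and 1923 and 3159 in Ctrl. The 5 without such a copy had medians of 19447 and 13322 CPM per kilobase in Olfm4CKO and 17299 and 9462 in Ctrl. COX1 and ND4, with a copy of part of the gene, lay between 7193 and 46967 CPM per kilobase over the 4 libraries. The ranges of the first 2 sets overlapped, since ND6 at 2501 and ND5 at 2660 CPM per kilobase lay below COX2, ATP6 and COX3 in Ctrl replicate 2. How reads that fit several places were handled is not stated in any source used here, and the part of the nuclear copies in the levels was not tested.

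Spread between libraries also differed along with the copies, in Olfm4CKO. There, 4 of the 5 transcripts with a near-identical copy of nearly the whole gene differed by over 2-fold between the libraries, ATP6 being the exception at 1.04-fold. In Ctrl 0 of these 5 did so, and their folds lay between 1.06 and 1.93. Among the 5 without such a copy, 1 of 5 differed by over 2-fold in Olfm4CKO (ND6) and 2 of 5 in Ctrl (ND5 and ND6). Of nuclear genes with a mean of at least 100 CPM, 12.7% differed by over 2-fold between the Olfm4CKO libraries and 6.47% between the Ctrl libraries. High spread was thus also seen outside the copied genes, and neither difference in spread was tested. Summed over the 5 transcripts without a near-identical copy, the share of all counts was 11.04% and 7.61% in Olfm4CKO against 9.48% and 6.32% in Ctrl (exact two-sided permutation test, p = 0.667).

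Although ATP8 and ATP6, and likewise ND4L and ND4, sit on a shared messenger RNA, the 2 genes of a pair had very unequal counts. Part of each gap is gene length: 204 bases in ATP8 against 681 in ATP6, and 297 in ND4L against 1378 in ND4. Per kilobase, ATP6 had 3805 and 3673 CPM in Olfm4CKO and 3474 and 3697 in Ctrl. ATP8 had 36.6 and 62.0 in Olfm4CKO and 34.7 and 41.1 in Ctrl. ND4 had 19725 and 11015 in Olfm4CKO and 12889.5 and 7193 in Ctrl. ND4L had 253 and 1382 in Olfm4CKO and 482 and 377 in Ctrl. ATP6 had 347 and 198 counts for each count of ATP8 in Olfm4CKO and 334 and 301 in Ctrl. ND4 had 362 and 37.0 counts for each count of ND4L in Olfm4CKO and 124 and 88.5 in Ctrl. Both Ctrl values of the ND4 to ND4L ratio lay between the 2 Olfm4CKO values. Whether a read over both genes was counted for both, for 1 or for neither is not stated in any source used here. ND4L and ND4 also differ in nuclear copies: ND4L has 3 bases outside its copy, and ND4 has 502. ATP6 has 3 bases outside its copy. No copy of ATP8 was listed, and its stretch on chromosome 1 was not checked. The part of such reads, and of the copies, in these ratios was not tested. ATP8 and ATP6 together took 1.36% and 1.49% in Olfm4CKO against 1.25% and 1.85% in Ctrl, and ND4L and ND4 together 14.2% and 9.23% against 9.42% and 7.33%.

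Nuclear genes supply the other subunits of the same complexes. Of 36 nuclear complex I subunits tested with edgeR, 0 passed in either direction, with a median log2 fold change of 0.03. The same was true of 9 complex III subunits (median -0.12), 13 complex IV subunits (0.04) and 15 complex V subunits (-0.02). These medians follow the library left out: they lay between -0.59 and -0.49 with Olfm4CKO replicate 1 left out and between 0.25 and 0.50 with Olfm4CKO replicate 2 left out. The catalytic subunit Atp5b of complex V had 4252 and 5190 CPM after TMM scaling in Olfm4CKO against 6132 and 8149 in Ctrl (log2 fold change -0.60 ± 0.40 SE), and the groups did not overlap, as was so in this direction for 12.8% of all genes tested. Ndufv1, which binds NADH in complex I, had 759 and 761 against 867 and 1342 (log2 fold change -0.54 ± 0.38 SE), also without overlap. Uqcrc2, a core subunit of complex III, had 772 and 799 against 1022 and 1035 (log2 fold change -0.39 ± 0.36 SE). Other subunits lay on the other side. Atp5g1, which encodes the ring subunit of complex V and had the smallest p of that list, had 13.9 and 8.27 against 7.26 and 6.94 without overlap (log2 fold change 0.64 ± 0.42 SE), as was so in this direction for 11.8% of all genes tested. Ndufa5, an accessory subunit of complex I, had 515 and 207 against 220 and 329 (0.40 ± 0.46 SE), and its fold change ran from -0.39 to 0.90 when 1 library was left out. In complex IV the smallest p was that of Cox8a, with 1185 and 834 against 938 and 1537 and overlapping groups (-0.29 ± 0.40 SE, and from -0.61 to 0.11 when 1 library was left out).

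Set against these nuclear partners, mitochondrial transcripts of complex I had summed CPM 4.58 and 5.12 times those of the nuclear subunits in Olfm4CKO and 5.41 and 2.43 times in Ctrl. For complex III the ratios were 4.48 and 4.48 against 4.71 and 2.60. Complex IV varied most, with ratios of 2.71 and 7.99 in Olfm4CKO against 6.51 and 3.74 in Ctrl. In Olfm4CKO replicate 1 nuclear complex IV transcripts were the highest of the 4 libraries, at 18754 CPM, while the mitochondrial ones were the lowest, at 50818 CPM. For complex V the ratios were 0.159 and 0.182 in Olfm4CKO against 0.149 and 0.125 in Ctrl, the only complex of the 4 in which the groups did not overlap. Groups did not overlap for 24.6% of all genes tested, and the difference in this ratio was not tested. The mitochondrial part had 2599 and 2514 CPM in Olfm4CKO against 2373 and 2526 CPM in Ctrl. The nuclear part varied more, with 16386 and 13825 CPM against 15976 and 20198.5 CPM. The mitochondrial part is nearly all ATP6, whose copy on chromosome 1 is identical over 678 of its 681 bases. The part of the copy in the ratio was not tested.

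**Figure D4:**
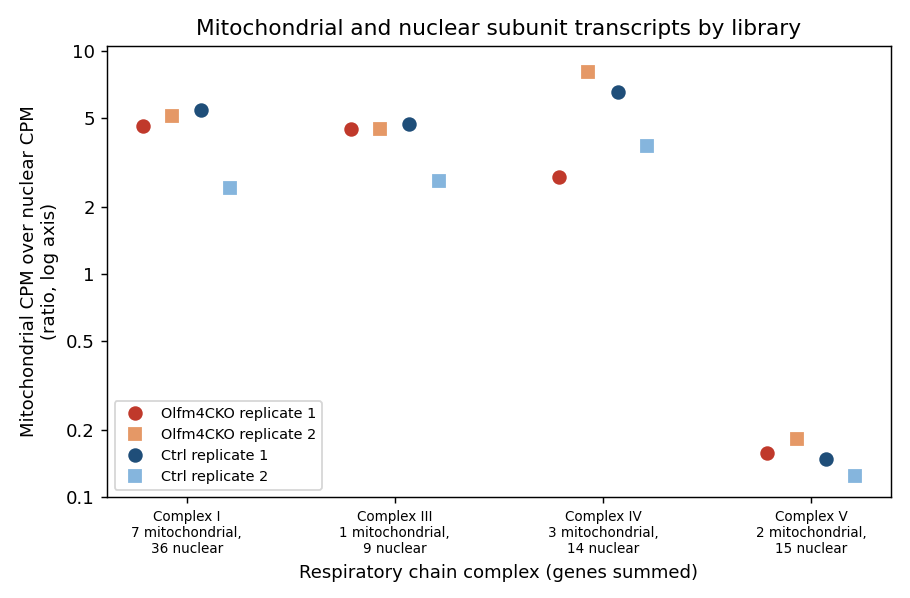
Ratio of summed mitochondrial CPM to summed nuclear CPM for the subunits of each respiratory chain complex (log axis), by library. Ctrl replicate 2 has the lowest ratio in complexes I, III and V, and Olfm4CKO replicate 1 the lowest in complex IV.

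The proteins that copy, transcribe and process the mitochondrial genome are all encoded in the nucleus, and none of those tested passed in edgeR. Of 10 transcription factors and termination factors, 0 passed, 3 lay above 0 and 7 below (median log2 fold change -0.11). Tfam, which packs mitochondrial DNA and starts its transcription, had 35.1 and 42.8 CPM after TMM scaling in Olfm4CKO against 50.1 and 50.5 in Ctrl. The groups did not overlap, with a log2 fold change of -0.37 ± 0.33 (SE, edgeR adjusted p = 0.9998). The elongation factor Tefm had 14.7 and 10.9 against 19.7 and 16.2 (-0.49 ± 0.36 SE). The mitochondrial RNA polymerase Polrmt had 49.2 and 55.7 against 53.7 and 56.4 (-0.07 ± 0.32 SE), and the initiation factor Tfb2m 51.5 and 59.5 against 66.7 and 59.5 (-0.19 ± 0.33 SE), both with overlapping groups. The value of Polrmt ran from -0.17 to 0.03 when 1 library was left out. The termination factor gene Mterf1a was low, with 3.36 and 1.91 against 1.75 and 1.54 (0.67 ± 0.61 SE).

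Among 10 genes of replication and the nucleoid, 2 lay above 0 and 8 below (median -0.19). The helicase gene listed as Peo1 (also known as Twnk) had 23.8 and 23.3 CPM after TMM scaling in Olfm4CKO against 28.9 and 31.1 in Ctrl (-0.35 ± 0.32 SE). The nuclease genes Exog and Endog had log2 fold changes of 0.48 ± 0.53 and -0.23 ± 0.36 (SE), that of Endog between -0.53 and 0.04 when 1 library was left out. For 26 genes of RNA processing and decay the counts were 5 above and 21 below 0 (median -0.14). Trmt10c, a subunit of the enzyme that cuts the 5′ end of mitochondrial transfer RNAs, had 23.6 and 17.4 against 35.5 and 23.6 (-0.53 ± 0.36 SE). The gene listed as 1110008L16Rik had 7.68 and 12.1 against 14.3 and 14.5 (-0.54 ± 0.39 SE), and the transfer RNA modifying enzyme Gtpbp3 15.8 and 18.6 against 23.2 and 22.2 (-0.40 ± 0.33 SE). Lrpprc and Slirp form the complex that stabilises mitochondrial messenger RNAs. Lrpprc had 152 and 176 against 185 and 151 (-0.03 ± 0.34 SE), and Slirp 65.4 and 29.4 against 31.7 and 43.8 (0.33 ± 0.41 SE), each with overlapping groups. Both turned sign when 1 library was left out, with ranges of -0.16 to 0.12 for Lrpprc and -0.35 to 0.79 for Slirp.

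None of the translation genes passed either. Of 12 translation factors, 2 lay above and 10 below 0 (median -0.16), with Mtif3, an initiation factor, at 21.6 and 17.0 CPM after TMM scaling in Olfm4CKO against 23.3 and 27.5 in Ctrl (-0.40 ± 0.34 SE). Mtrf1, a release factor, had -0.47 ± 0.40 (SE). Taco1, which promotes translation of COX1, had 18.8 and 70.0 against 54.5 and 67.9 (-0.46 ± 0.51 SE), and its sign turned when 1 library was left out, over a range of -1.71 to 0.21. The lowest library for Taco1, Olfm4CKO replicate 1, was also the lowest for COX1 and for ND4L, and a link of Taco1 to their levels was not tested. Of 20 mitochondrial transfer RNA synthetase and amidotransferase genes 5 lay above and 15 below 0 (median -0.19), among them Pars2 (-0.74 ± 0.42 SE) below 0 and Qrsl1 (0.40 ± 0.33 SE) above. Lars2, the leucine enzyme, named here because of its values, had 1213 and 265 against 987 and 206, with replicate 1 far above replicate 2 in both groups, as for ND6. Its log2 fold change, 0.31 ± 0.73 (SE), ran from -1.15 to 1.84 when 1 library was left out.

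Nuclear regulators of mitochondrial biogenesis lay mostly on the other side of 0, with 8 of 9 above and a median log2 fold change of 0.27, and 0 passed. The size of the list medians depended on single libraries. When 1 library was left out, that of the regulators lay between 0.13, without Ctrl replicate 2, and 0.35. The same medians lay between -0.12 and -0.05 for transcription, -0.20 and -0.09 for replication, -0.19 and -0.08 for RNA processing, -0.29 and -0.09 for translation factors and -0.29 and -0.12 for synthetases. The coactivator Pprc1 had 21.9 and 14.4 CPM after TMM scaling in Olfm4CKO against 7.58 and 9.55 in Ctrl, a log2 fold change of 1.08 ± 0.39 (SE; unadjusted p = 0.0172, edgeR adjusted p = 0.9998). The groups did not overlap, and the value stayed between 0.77 and 1.35 whichever library was left out. Gabpb1, a subunit of a factor that binds promoters of respiratory genes, had 12.98 and 11.3 against 8.20 and 9.60 (0.44 ± 0.38 SE). The coactivators Ppargc1b (0.56 ± 0.42 SE) and Ppargc1a (0.24 ± 0.46 SE) had overlapping groups, with Ppargc1a at 76.7 and 57.2 against 83.2 and 29.9 and a fold change between -0.31 and 1.16 when 1 library was left out.

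**Figure D5:**
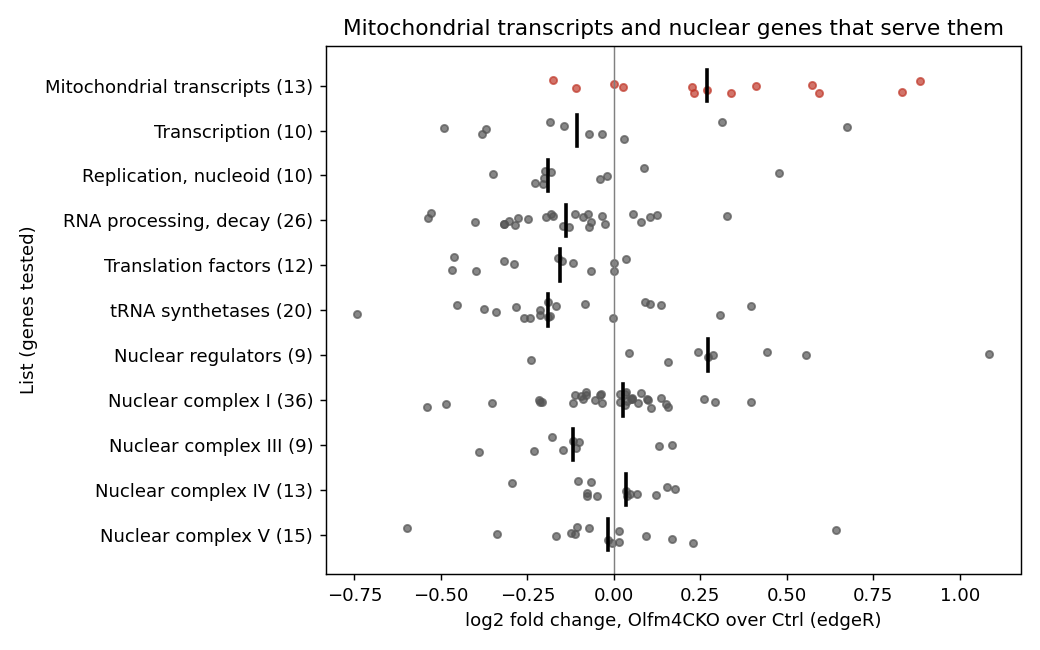
Log2 fold change of Olfm4CKO over Ctrl (edgeR) for each tested gene, by list, with the number tested in brackets. Points are genes, heights within a row carry no meaning, and the vertical bar is the median, which is 0.27 for the mitochondrial transcripts and between -0.19 and 0.27 for the nuclear lists.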

How the data were processed

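Messenger RNA libraries were made from brown fat RNA per the labels' protocols. Per the submitters' processing notes, the tools were HISAT2 2.1.0, featureCounts 1.6.0 and cutadapt 1.11, and the build mm10. The annotation, the strand setting and the handling of reads with several matches: not given in the sources used here. The authors' deposited table bears FPKM in its name, yet it holds whole numbers and was read as raw counts per gene. Of 35978 rows, 35975 held counts in the 4 libraries used, and 27 carried a date in place of a symbol. The rows of the replicate 3 columns do not follow the gene names, so these columns were used in no comparison. In the rows of the mitochondrial genome they were blank.

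CPM is the count scaled to a library total of 1000000. The test was edgeR 4.0.16 under R 4.3.3, with TMM factors, genes kept by filterByExpr at a minimum count of 10 and a minimum total of 15, a quasi-likelihood fit on group, Benjamini-Hochberg adjustment over all 13573 genes, threshold 0.05. Standard errors are the log2 fold change over the square root of F. Replicates of a group were not duplicates of each other: a chi-square test between them gave 142.9 per degree of freedom in Olfm4CKO and 92.62 in Ctrl. The fit was tested on simulated data. Coordinates and lengths come from RefSeq (GRCm38.p6), and copies were searched with BLAST 2.17.0. Sequences are those of GENCODE vM21. The members and lists were chosen with earlier results of these data known. Named nuclear genes are at most 3 with the smallest p of each list and 7 chosen by function; Lars2 was added after its values were seen. Alternatives were other filters and scalings, DESeq2 1.42.0, limma-voom (limma 3.58.1), a replicate block and each library left out.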

Additional observations from a re-analysis of the deposited data

How the results depend on the processing

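Called mitochondrial transcripts numbered 0 under every alternative run, and the median log2 fold change of the 13 lay between 0.21 and 0.30 with all 4 libraries and between -0.03 and 0.52 with 1 library left out. Over all genes, DESeq2 called 1 gene, the replicate block 4, and fits without 1 library between 6 and 27, against 0; none was a mitochondrial transcript. Same-numbered libraries did not deviate together (correlation 0.003), and the labels give the shared number no meaning. COX2, at 0.00, was -0.0095 without the filter, -0.14 with limma-voom and -0.14 with the replicate block, and ND5 turned to 0.0141 with limma-voom and to 0.0157 with the replicate block. With 1 library left out, where a group's single remaining library is taken to vary as the other group does, 12 of 13 transcripts turned sign in at least 1 fit. The log2 fold changes then ran from -0.14 to 0.53 for ND1, -0.0820 to 0.74 for ND2, -0.59 to 0.16 for COX1, -0.81 to 0.52 for COX2, -0.0705 to 0.67 for ATP8, -0.0375 to 0.10 for ATP6, -1.33 to 1.18 for COX3, -0.32 to 1.46 for ND3, -0.78 to 1.66 for ND4L, -0.60 to 0.66 for ND5, -0.52 to 1.29 for ND6 and -0.0875 to 0.49 for CYTB. The log2 ratio of the mitochondrial share lay between -0.0763 and 0.40 when 1 library was left out, and was 0.30 without COX1, 0.16 over nuclear counts, and 0.24 for the 5 transcripts without a near-identical copy, a set chosen after seeing the data. The rRNA alternative could not differ, since no rRNA row was present. Of 110 alternative medians of the nuclear lists, 15 moved by more than the spread between replicates. Counts were low for ATP8 only, and the spread between libraries sets the precision, with a biological coefficient of variation of 32.6%.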
